A study of Homo sapiens with 9 samples.

Results

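A set of 10 genes for transporters that carry amino acids and cystine across the plasma membrane was examined. The protocols name the cells R-HepG2, an insulin-resistant form of the hepatoma line HepG2. The genes were SLC7A11, SLC7A5, SLC3A2, SLC7A1, SLC1A4, SLC1A5, SLC38A1, SLC38A2, SLC6A9 and SLC43A1. They were taken as a fixed list of names, which was chosen with earlier results of these data known. Matching to the array through their Entrez identifiers gave 10 of 18132 genes on the array. These genes were read by 41 of 49395 probe sets, each a group of short oligonucleotides that reads 1 transcript region. Older names of the members that are now symbols of other genes (3 names) were not taken.

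Messenger RNA was measured on 9 arrays in 3 groups of 3. Cells of the first group were given biomineralized insulin for 4 h, those of the second insulin for 4 h, and those of the third plain DMEM medium for the same time, all after a night without serum. Both insulin preparations held 40 ug/ml of insulin. The cell line tag reads HepG2 for both treated groups and R-HepG2 for medium, whereas the protocols name R-HepG2 for every group. If the tags were right, the medium comparisons would also compare lines. No group given the mineral component alone is among the 3, and the labels do not say that the arrays of a group hold separate cultures. The p-values therefore rest on array spread, which may be technical.

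Values are the deposited log2 expression values. A gene or probe set is called changed where its Benjamini-Hochberg adjusted p in the limma fit over all tested features was under 0.05, and a probe set was tested where its mean over the 9 arrays was at least 4.74 log2. Array medians lay between 5.46 and 5.50 log2, and arrays of a group correlated at 0.9977 to 0.9984 across probe sets. The labelled liver origin was set against 16 hepatocyte marker genes, of which 5 were at or above that brightness and 11 below it. ALB, the gene of albumin, stood at 3.41 log2 on biomineralized insulin arrays, 3.49 on insulin arrays and 3.28 on medium arrays, with AFP at 2.93, 2.87 and 3.00. The brightest of these 16 was APOA1, an apolipoprotein gene, at the 44.6th percentile of genes in medium. Of 7 lung and airway markers 4 were at or above that brightness, and SFTPA1, SFTPD and SCGB1A1 were below it. ABCA3, NKX2-1 and SFTPC of that list stood at percentiles 67.7, 48.7 and 46.4 in medium, higher than every hepatocyte marker. This was not particular to lung genes. The fibroblast markers DCN (67.5) and LUM (44.8) and the white blood cell marker CD68 (60.2) also stood higher than every hepatocyte marker. The remaining markers of these lists were lower than APOA1. The hepatocyte markers thus do not bear out the labelled liver origin, and the identity of the cells was not tested. The summed level of the hepatocyte markers ranged from 8.43 to 8.50 log2 on biomineralized insulin arrays, 8.38 to 8.47 on insulin arrays and 8.36 to 8.49 on medium arrays. The summed lung and airway markers ranged from 9.02 to 9.13 log2 with biomineralized insulin, 8.84 to 8.90 with insulin and 8.78 to 8.86 in medium. The summed level of 5 fibroblast markers, 3 of them above the filter, ranged from 8.80 to 8.85 log2 with biomineralized insulin, 8.61 to 8.73 with insulin and 8.52 to 8.66 in medium. In both of these lists the biomineralized insulin arrays lay above the others, and the part of this in the results was not tested. The summed levels of the white blood cell, endothelial and squamous markers overlapped between biomineralized insulin and medium.

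Cells import amino acids through transporters that differ in their cargo and in the ion or amino acid exchanged. System xc- brings in cystine in exchange for glutamate, and cystine is reduced to cysteine, which limits the synthesis of glutathione. Many of these genes are induced when amino acids run short or the endoplasmic reticulum is stressed, through the transcription factor ATF4, and SLC7A11 also through NFE2L2, known as NRF2. Leucine brought in by such transporters is sensed by proteins upstream of the growth kinase complex mTORC1.

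After biomineralized insulin all 10 transporter messages were lower than in medium, by between 3.18 and 0.33 log2. The fall was 9.05-fold for SLC7A11, the cystine and glutamate exchanger, 3.29-fold for SLC43A1, 3.11-fold for SLC1A4 and 2.83-fold for SLC1A5. All 10 genes were called lower, against a background of 25.2% of 12240 tested genes called lower in this comparison. A fall of at least 1.5-fold was reached by 7 of the 10 and by 4.35% of tested genes, and one of at least 2-fold by 4 of the 10 and by 1.16%. The median change of the 10 was -0.94 log2, beside 0.02 for all tested genes. On every gene the 3 biomineralized insulin arrays lay below the 3 medium arrays, a pattern that held for 27.7% of tested genes. A lower value can mean fewer cells with the message or less of it per cell, which arrays of whole cultures cannot tell apart.

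The brightness of 12 poly-A spike-in probe sets, bacterial transcripts added to the RNA, also differed between groups. Their mean was 7.80 ± 0.17 log2 with biomineralized insulin, 7.39 ± 0.06 with insulin and 7.36 ± 0.08 in medium (SD, n = 3 arrays each). Centring the arrays on these controls moved the median change of all genes by -0.44 log2 in biomineralized insulin against medium and by -0.41 in biomineralized insulin against insulin. After it 76.4% of tested genes were called lower and 1.61% higher than in medium, and 77.5% lower and 1.01% higher than with insulin. The falls of the 10 transporters kept their sign and their call under this centring, with a median of -1.38 log2 against medium, beside -0.42 for all tested genes. The actin signal at the 3' end minus that at the 5' end, which reports on RNA integrity, was 3.07 ± 0.10 log2 with biomineralized insulin, 3.19 ± 0.08 with insulin and 3.02 ± 0.06 in medium (SD, n = 3 arrays each). The same signal for GAPDH averaged 0.20 log2 with biomineralized insulin, 0.17 with insulin and 0.16 in medium. The part of the spike-in and 3' to 5' measures in these results was not tested.

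**Figure D1:**
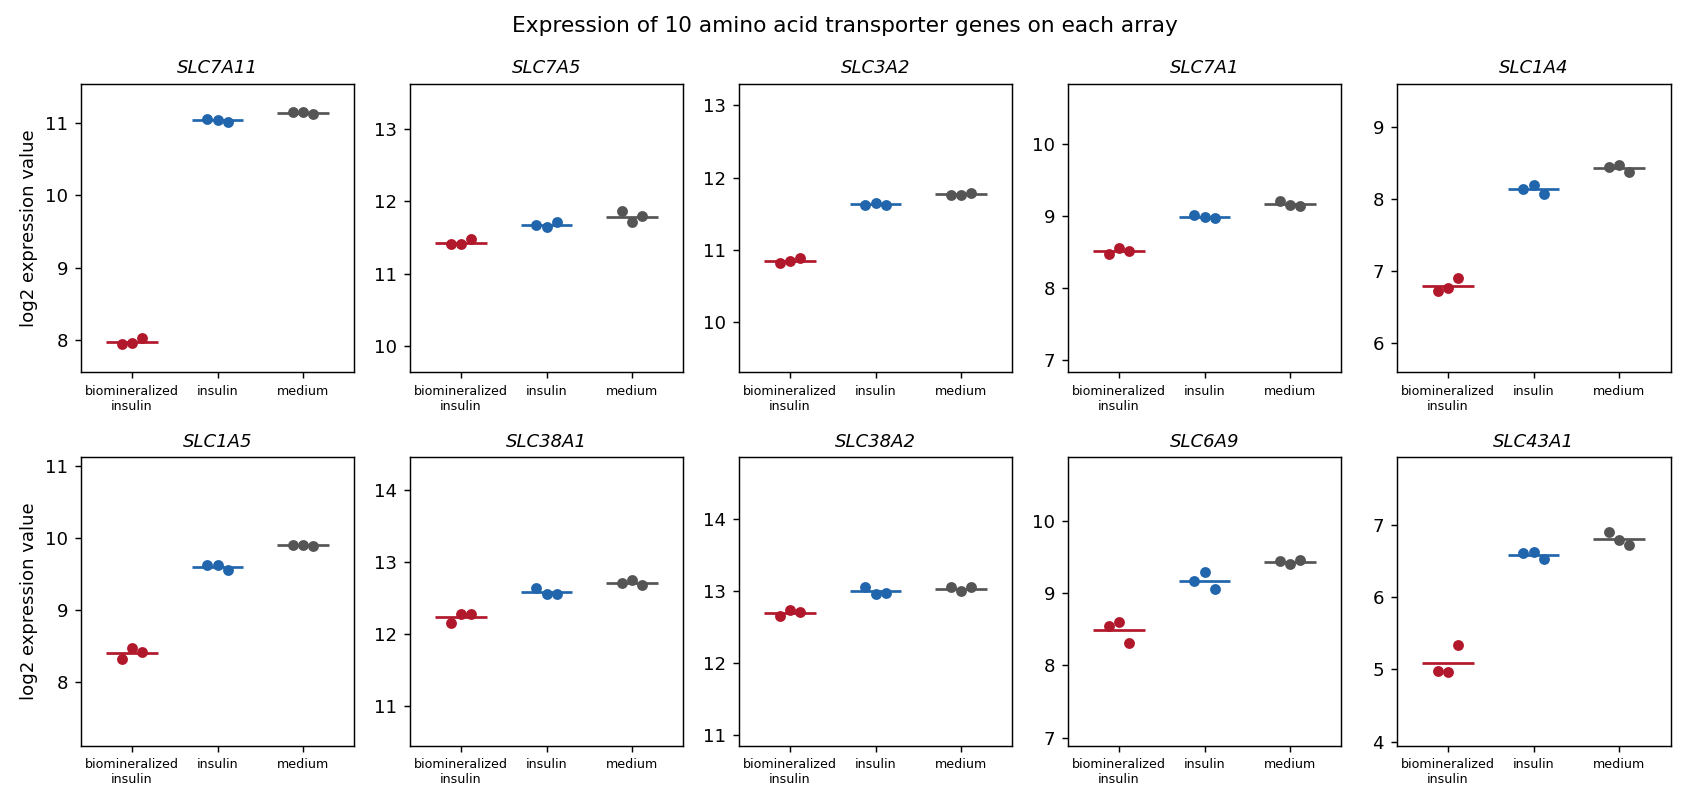
Expression value (log2, y axis) of each of the 10 transporter genes on the 9 arrays, by its brightest probe set. Points are arrays, horizontal lines are group means, groups run from biomineralized insulin through insulin to medium, and every panel spans the same number of log2 units. SLC7A11 stands near 7.97 with biomineralized insulin, 11.04 with insulin and 11.15 in medium, while SLC38A2 differs between the groups by at most 0.33.

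Short stretches of the promoters are printed because the letters show where a known ATF4 sequence lies. The motif searched was TGATGNAA, the C/EBP-ATF composite, on both strands of a window from 250 bases before to 50 after each annotated start site (RefSeq, GRCh38.p14). It does not overlap the other motif searched in any printed stretch. Windows were listed for 9 of the members, SLC7A11 not among them. Of the 16 windows of these 9 genes, 5 held the motif (31.2%), beside 3.62% of all 35116 windows of the same length, and those 5 windows belong to 5 genes. Each stretch below has 30 bases, reads 5′ to 3′ on the strand of its gene, and shows the motif or its reverse complement in capitals.
SLC1A4 (chr2:64989381-64989410, plus strand, motif from 7 bases before the start): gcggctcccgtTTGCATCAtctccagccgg
SLC1A5 (chr19:46784893-46784922, minus strand, motif from 97 bases before the start): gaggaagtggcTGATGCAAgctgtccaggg
SLC38A1 (chr12:46266502-46266531, minus strand, motif from 4 bases before the start): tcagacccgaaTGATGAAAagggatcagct
SLC3A2 (chr11:62881719-62881748, plus strand, motif from base 38 after the start): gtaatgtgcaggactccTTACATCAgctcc
SLC7A1 (chr13:29595663-29595692, minus strand, motif from base 8 after the start): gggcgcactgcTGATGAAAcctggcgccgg

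A core of the antioxidant response element, TGACNNNGC, was searched in the same way and was found in 4 of the 16 windows (25%), beside 13.3% of all windows. It is shown for the heavy chain and the leucine transporter, which pair as 1 complex. SLC1A5 and SLC7A1 also held it, and those stretches are not printed.
SLC3A2 (chr11:62881652-62881681, plus strand, motif from 37 bases before the start): cgagggtgggTGACTCAGCgtcctccttcc
SLC7A5 (chr16:87869490-87869519, minus strand, motif from 2 bases before the start): gcggggttccTGACGCAGCtgcgggcggcg
No window of SLC7A5, SLC38A2, SLC6A9 or SLC43A1 held TGATGNAA. A match describes letters in a window and not a bound site, and these arrays hold no binding data. Any part of either motif in the falls was not tested.

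SLC7A11 and SLC3A2 encode the light and heavy chains of system xc-. SLC7A11 read 7.94, 7.96 and 8.02 log2 on the biomineralized insulin arrays, 11.06, 11.05 and 11.02 on the insulin arrays and 11.16, 11.16 and 11.13 on the medium arrays. All biomineralized insulin arrays were far below the rest, and the difference from medium was -3.18 ± 0.04 log2 (SE, limma adjusted p = 1.38e-18), which left 11.1% of the medium level. Among the genes called lower in that comparison, 2 fell by more. Its second probe set changed by -3.40 ± 0.05, and the dimmest of its 3 probe sets, at 7.34 log2 in medium, by -0.80 ± 0.13. The probe sets of SLC7A11 were all called lower, although they differ in size of change.

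SLC3A2, the heavy chain known as CD98 or 4F2hc that carries several light chains to the surface, read 10.82, 10.84 and 10.89 log2 with biomineralized insulin, 11.62, 11.65 and 11.62 with insulin and 11.76, 11.76 and 11.79 in medium. No array of 1 group overlapped another group. The difference between biomineralized insulin and medium was -0.92 ± 0.03 log2 (limma adjusted p = 3.16e-13), or 52.8% of the medium level. All 7 probe sets of SLC3A2 were called lower, with changes between -1.10 and -0.92. The promoter stretches of this heavy chain, printed above, hold a match to each motif. Among the other members, SLC1A5 and SLC7A1 also held a match to each motif in their windows.

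SLC7A5, the light chain LAT1 that imports leucine and other large neutral amino acids with SLC3A2, changed less. It read 11.40, 11.41 and 11.48 log2 with biomineralized insulin, 11.67, 11.65 and 11.72 with insulin and 11.86, 11.71 and 11.79 in medium. The insulin and medium arrays of SLC7A5 overlapped, and the biomineralized insulin arrays lay below both. The difference from medium was -0.36 ± 0.04 log2 (limma adjusted p = 7.00e-07), and its other probe set gave -0.27 ± 0.05. The 3 genes of these paired transporters lay at 11.1% (SLC7A11), 52.8% (SLC3A2) and 78.0% (SLC7A5) of their medium levels.

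SLC43A1, the transporter LAT3, moves branched-chain amino acids and phenylalanine without a heavy chain. It read 4.98, 4.97 and 5.33 log2 with biomineralized insulin, 6.62, 6.63 and 6.53 with insulin and 6.91, 6.80 and 6.72 in medium, so that the biomineralized insulin arrays came close to the brightness filter of 4.74. The change of -1.72 ± 0.09 log2 (limma adjusted p = 2.29e-10) rests on a single probe set. SLC7A1, the arginine and lysine transporter CAT1, read 8.47, 8.55 and 8.51 log2 with biomineralized insulin, 9.01, 8.99 and 8.97 with insulin and 9.20, 9.14 and 9.13 in medium, with no overlap between groups. It differed from medium by -0.65 ± 0.04 log2 (limma adjusted p = 2.35e-09). Its 3 tested probe sets were called lower, from -0.82 to -0.57, and the remaining one, at 3.44 log2, lay under the filter.

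SLC1A4 and SLC1A5 encode the sodium-dependent exchangers ASCT1, for alanine, serine and cysteine, and ASCT2, for glutamine. SLC1A4 read 6.73, 6.77 and 6.90 log2 with biomineralized insulin, 8.15, 8.19 and 8.08 with insulin and 8.44, 8.48 and 8.38 in medium. SLC1A5 read 8.33, 8.47 and 8.41 log2 with biomineralized insulin, 9.62, 9.62 and 9.56 with insulin and 9.91, 9.91 and 9.90 in medium. In both genes the 3 groups were separate and stood in the same order. Between biomineralized insulin and medium SLC1A4 differed by -1.64 ± 0.06 log2 (limma adjusted p = 1.17e-12) and SLC1A5 by -1.50 ± 0.04 (limma adjusted p = 1.02e-13). The 3 probe sets of SLC1A5 lay close together, between -1.57 and -1.50. The 6 probe sets of SLC1A4 did not: changes ran from -2.02 to -0.09, and the 2 dimmest, at 5.66 and 5.06 log2 in medium, were not called. The mean of the probe sets of SLC1A4 gave -0.90.

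SLC38A1 and SLC38A2, the transporters SNAT1 and SNAT2, concentrate glutamine and alanine inside the cell. SLC38A1 read 12.15, 12.27 and 12.27 log2 with biomineralized insulin, 12.63, 12.55 and 12.55 with insulin and 12.71, 12.74 and 12.68 in medium. SLC38A2 read 12.65, 12.73 and 12.71 log2 with biomineralized insulin, 13.05, 12.96 and 12.96 with insulin and 13.05, 12.99 and 13.05 in medium. For each gene the biomineralized insulin arrays lay under all others, and for SLC38A2 the insulin and medium arrays overlapped. The differences from medium were -0.48 ± 0.03 log2 for SLC38A1 (limma adjusted p = 7.05e-09) and -0.33 ± 0.03 for SLC38A2 (limma adjusted p = 1.16e-07). All 5 probe sets of SLC38A1 (-0.56 to -0.23) and all 3 of SLC38A2 (-0.40 to -0.32) were called lower. SLC38A2 is the amino acid transporter best known for induction on starvation, and its fall was the smallest of the 10 by the brightest probe sets. That rank depends on the probe set choice. With the mean of probe sets SLC6A9 was at -0.26 log2, while SLC38A2 was at -0.31 or lower under all 23 alternatives.

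SLC6A9, the glycine transporter GlyT1, read 8.55, 8.61 and 8.31 log2 with biomineralized insulin, 9.17, 9.30 and 9.06 with insulin and 9.45, 9.41 and 9.47 in medium. The groups did not overlap, and the difference between biomineralized insulin and medium was -0.95 ± 0.07 log2 (limma adjusted p = 9.05e-09). That call rests on the brightest of its 7 probe sets. Of the other 6, 4 were tested and not called, with changes of -0.17 to -0.04, and 2 lay under the filter, and the mean of its probe sets gave -0.26 (limma adjusted p = 0.0027). Across all members 32 of 38 tested probe sets were called lower, none was called higher and 6 were not called, against 24% of 27223 tested probe sets called lower. The 6 not called had medium means between 4.81 and 5.66 log2.

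**Figure D2:**
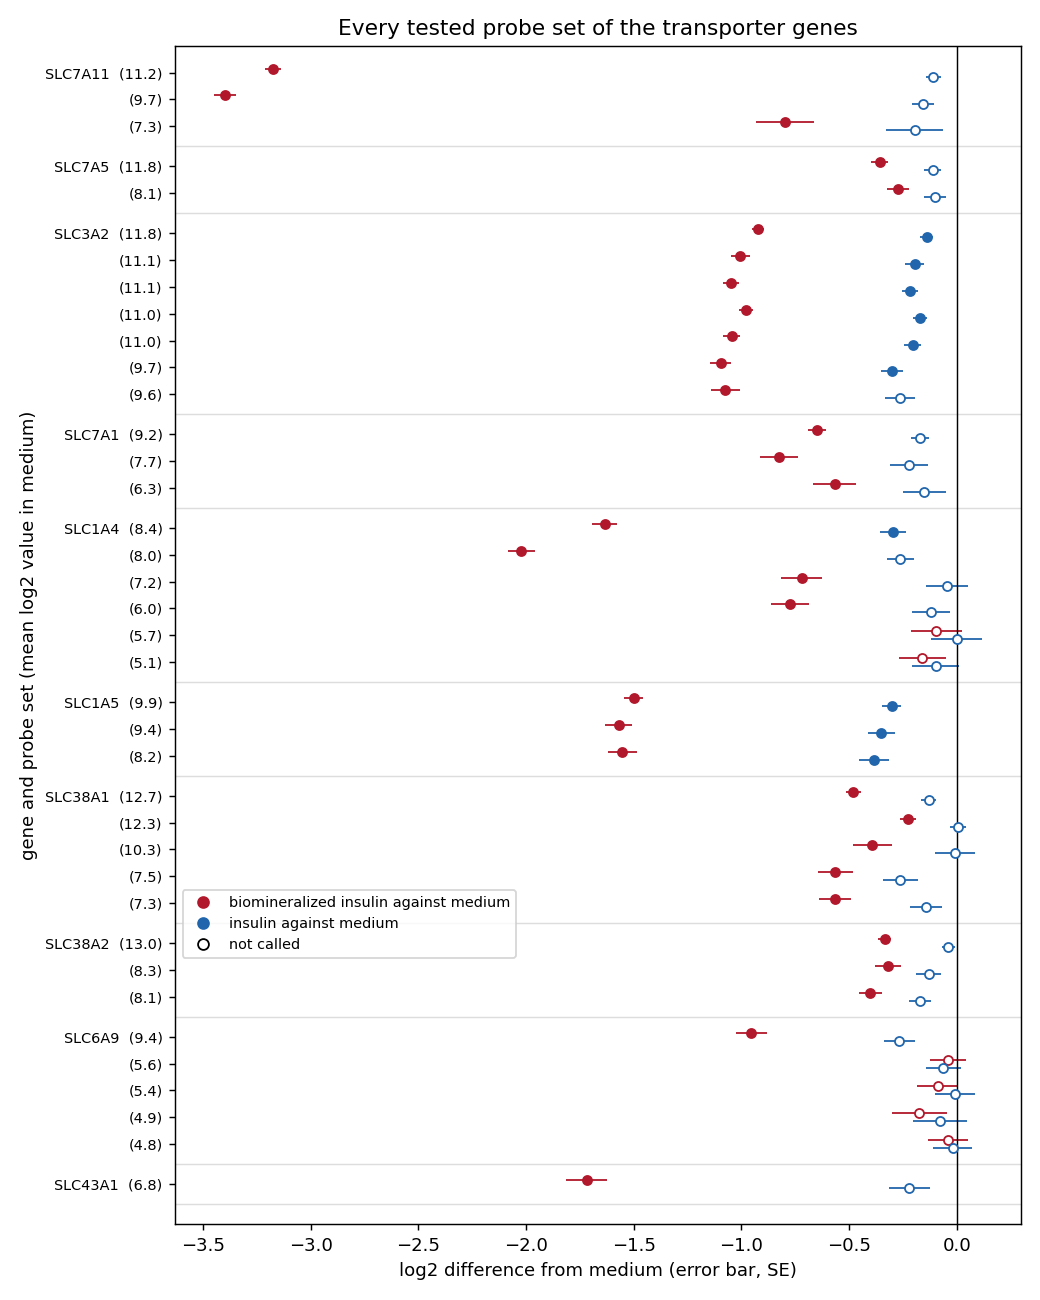
Log2 difference from medium (x axis, with SE) for each of the 38 tested probe sets, grouped by gene, with the mean log2 value in medium in brackets on the y axis. Red points are biomineralized insulin against medium, blue points insulin against medium, and open points were not called. The probe sets of SLC3A2 and SLC1A5 lie close together, whereas those of SLC7A11, SLC1A4 and SLC6A9 spread, the dim ones lying nearer to 0.

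Biomineralized insulin against insulin at the same insulin content asks what the preparation adds. The 10 genes were again called lower, where 23.3% of tested genes were, and on each gene every biomineralized insulin array lay below every insulin array (26.3% of tested genes). SLC7A11 differed by -3.07 ± 0.04 log2 (limma adjusted p = 2.37e-18), an 8.40-fold lower level. SLC43A1 differed by -1.50 ± 0.09, SLC1A4 by -1.34 ± 0.06 and SLC1A5 by -1.20 ± 0.04. SLC3A2 and SLC6A9 differed by -0.78 ± 0.03 and -0.69 ± 0.07, and SLC7A1 by -0.48 ± 0.04. For SLC6A9 the mean of probe sets gave -0.17 (limma adjusted p = 0.0352). The smallest differences were those of SLC38A1 (-0.35 ± 0.03), SLC38A2 (-0.30 ± 0.03) and SLC7A5 (-0.25 ± 0.04, limma adjusted p = 5.16e-05). A level at least 1.5-fold lower was found for 6 of the 10 and for 3.59% of tested genes, and one at least 2-fold lower for 4 of the 10 and for 0.956%. Of the probe sets, 32 of 38 were lower, against 20.4% of all those tested. The median difference of the 10 genes was -0.74 log2, beside 0.02 over all genes.

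Insulin against medium gave small differences in the same direction. All 10 genes had a negative change, between -0.30 and -0.04 log2, and 4 were called lower, against 1.2% of tested genes. These were SLC1A5 (-0.30 ± 0.04, limma adjusted p = 0.0026), SLC1A4 (-0.30 ± 0.06, 0.0147), SLC3A2 (-0.14 ± 0.03, 0.0217) and SLC7A1 (-0.17 ± 0.04, 0.0449). Insulin arrays lay wholly below medium arrays for 8 of the 10 genes, a pattern found for 9.1% of tested genes, the exceptions being SLC7A5 and SLC38A2. SLC7A11 was not called at -0.11 ± 0.04 log2 (limma adjusted p = 0.137, 95% interval -0.18 to -0.03). SLC6A9 was at -0.27 ± 0.07 (adjusted p = 0.0575), SLC43A1 at -0.22 ± 0.09 (0.251), SLC38A1 at -0.13 ± 0.03 (0.0593), SLC7A5 at -0.11 ± 0.04 (0.144) and SLC38A2 at -0.04 ± 0.03 (0.605), none of them called in the limma fit. On probe sets 10 of 38 were called lower, against 0.771% of all tested: 6 of the 7 of SLC3A2, all 3 of SLC1A5 and 1 of SLC1A4. The probe set of SLC7A1 missed the threshold there (limma adjusted p = 0.0698).

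The call of SLC1A5 under insulin was lost in 1 of 23 alternatives, with spike-in centring. Those of SLC1A4, SLC3A2 and SLC7A1 depended on single arrays. Of the 4 genes, 1 was called without medium replicate 2 or without insulin replicate 3, and 2 without medium replicate 3 or without insulin replicate 1. With arrays centred on the spike-ins none of the 10 members was called, and 3 of the 10 had an unadjusted limma p under 0.05. The changes were then -0.33 ± 0.12 log2 (SE) for SLC1A5 and -0.32 ± 0.12 for SLC1A4. SLC3A2 was at -0.17 ± 0.11 and SLC7A1 at -0.20 ± 0.12. The call of SLC7A1 was lost in 20 of 23 alternatives (limma adjusted p = 0.0293 to 0.9999 over all). The actin 3' minus 5' signal was higher on insulin than on medium arrays by 0.17 log2, and that of GAPDH by 0.0042. The part of either was not tested. Both treated groups were compared with the same 3 medium arrays, so the shared direction of the small and large changes is not independent evidence.

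**Figure D3:**
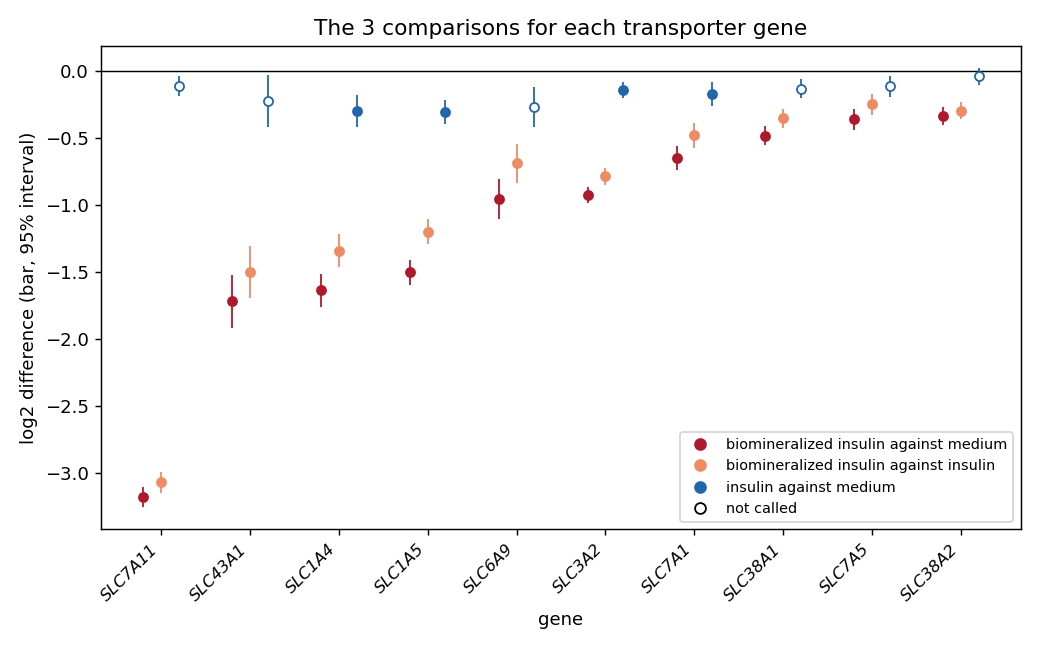
Log2 difference (y axis) with its 95% interval for each transporter gene, ordered by the change in biomineralized insulin against medium. Red is biomineralized insulin against medium, orange biomineralized insulin against insulin, blue insulin against medium, and open points were not called. Red and orange points are all called, from -3.18 for SLC7A11 to -0.25 for SLC7A5, while blue points stay between -0.30 and -0.04.

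Other amino acid transporters of the plasma membrane gave another pattern. Of 35 listed genes 22 were tested, and with biomineralized insulin against medium 13 rose and none fell (limma, 0 lower at an unadjusted p under 0.05), although after spike-in centring 1 was called higher and 8 lower. The background was 25.7% of tested genes called higher, or 76.4% called lower after that centring. Their median was 0.20 log2, beside 0.02 for all tested genes. SLC6A6, the taurine transporter, rose by 0.84 ± 0.05 log2 (limma adjusted p = 4.44e-10) and was the one still called higher after that centring. SLC16A10, an aromatic amino acid transporter, rose by 0.67 ± 0.09, with another probe set at -0.07. SLC7A6, also a light chain that pairs with SLC3A2, rose by 0.51 ± 0.05, and SLC1A1, a glutamate and cysteine transporter, by 0.41 ± 0.06. After spike-in centring SLC16A10 and SLC7A6 were at 0.23 and 0.06, neither called, and SLC1A1 was at -0.03. In biomineralized insulin against insulin 9 of the 22 were higher and none lower (1 at an unadjusted limma p under 0.05). With spike-in centring none was higher and 12 were lower. The background was 21.1% of tested genes called higher, or 77.5% called lower after that centring. Under insulin 1 was called higher against medium, SLC6A6, by 0.27 ± 0.05 (limma adjusted p = 0.0085), where 1.25% of tested genes were. That call was lost when medium replicate 2 (0.0700) or insulin replicate 3 (0.0601) was left out. Over the alternatives the limma adjusted p reached 0.9999, with spike-in centring, where SLC6A6 was at 0.24 ± 0.11.

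Carriers of lysosomes and mitochondria went both ways. Of 15 tested, 7 rose and 2 fell with biomineralized insulin against medium, or none rose and 7 fell after spike-in centring. Of all tested genes 25.7% were called higher and 25.2% lower, or 1.61% and 76.4% after that centring. Without cross-hybridizing probe sets 11 were tested, of which 3 rose and 3 fell. SFXN3, a sideroflexin of the mitochondrial serine carrier family, rose by 0.66 ± 0.05 log2, SLC25A22, a mitochondrial glutamate carrier, by 0.65 ± 0.07, and SLC25A44, the mitochondrial branched-chain amino acid carrier, by 0.45 ± 0.07. After spike-in centring these 3 were at 0.22, 0.21 and 0.01, none called, and SFXN3 was not called without cross-hybridizing probe sets either (0.17, limma adjusted p = 0.0698). SLC25A38, the mitochondrial glycine carrier, fell by 0.36 ± 0.05. CTNS, the exporter of cystine from lysosomes, was at -0.23 ± 0.06, 2 of its 5 probe sets having the opposite sign, and its call was lost with the mean of its probe sets (limma adjusted p = 0.512). Against insulin 8 of the 15 were higher and 3 lower, or none higher and 8 lower after spike-in centring. The background there was 21.1% higher and 23.3% lower, or 1.01% and 77.5% after that centring. Under insulin SFXN3 was called higher than in medium, at 0.23 ± 0.05 (limma adjusted p = 0.0312). The call was lost when medium replicate 1 or 2 or insulin replicate 3 was left out (0.0707 to 0.185). With spike-in centring SFXN3 was at 0.20 ± 0.12 (limma adjusted p = 0.9999).

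Genes that make cysteine, that make, use or break down glutathione, or that belong to the thioredoxin system were taken as 1 list and were mostly lower. Of 12 tested, 7 fell and 1 rose with biomineralized insulin against medium, and 12 fell after spike-in centring. The share of all tested genes called lower was 25.2%, or 76.4% after that centring. CTH, which makes cysteine from cystathionine, fell by 2.22 ± 0.04 log2 (limma adjusted p = 5.04e-16), and CHAC1, which breaks glutathione down, was at -2.17 ± 0.13, with a second probe set at -1.06. TXNRD1, thioredoxin reductase, was at -0.51 ± 0.03 and GPX4, the glutathione peroxidase of membrane lipids, at -0.42 ± 0.03, both called lower. TXN, thioredoxin, rose by 0.17 ± 0.04, but was at -0.27 and called lower after spike-in centring. GCLC, the catalytic subunit of the first step of glutathione synthesis, was not called at 0.01 log2, and was named after its value was seen. Against insulin 7 of the 12 were lower and none higher, and all 12 were lower after spike-in centring. Of all tested genes 23.3% were lower and 21.1% higher than with insulin, or 77.5% and 1.01% after that centring. Under insulin CTH was called lower than in medium, at -0.18 ± 0.04 (limma adjusted p = 0.0334). The call was lost without medium replicate 1 or 2 and without any single insulin array (0.0568 to 0.131). With spike-in centring CTH was at -0.21 ± 0.11 (limma adjusted p = 0.9999).

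Among factors known to act on these transporters 8 of 16 fell and 5 rose with biomineralized insulin against medium, and 13 fell and 1 rose after spike-in centring. Over all tested genes 25.2% fell and 25.7% rose, or 76.4% and 1.61% after that centring. Without cross-hybridizing probe sets 11 were tested, of which 4 fell and 4 rose. ATF4, the transcription factor of the amino acid response, read 11.86, 11.85 and 11.91 log2 with biomineralized insulin, 12.71, 12.77 and 12.70 with insulin and 12.74, 12.75 and 12.73 in medium, a fall of 0.87 ± 0.03 (limma adjusted p = 2.42e-13). DDIT3 and ATF3, factors induced downstream of ATF4, were at -2.90 ± 0.06 and -3.02 ± 0.08, another probe set of ATF3 at -0.43. CD44, a surface protein known to stabilise the SLC7A11 protein, rose by 0.76 ± 0.03, with all 10 of its probe sets called higher, and stayed higher after spike-in centring. EIF2AK4, the kinase GCN2 that senses uncharged transfer RNA, rose by 0.59 ± 0.07, and was at 0.15 and not called after spike-in centring. Under insulin CD44 was called higher than in medium by 0.21 ± 0.03 (limma adjusted p = 0.0043), but its probe set of largest variance read 2.08e-04 log2 and was not called. With spike-in centring CD44 was at 0.18 ± 0.11 (limma adjusted p = 0.9999, the highest over the alternatives). Against insulin 8 of the 16 were lower and 6 higher, or 11 lower and none higher after spike-in centring. The shares of all tested genes there were 23.3% lower and 21.1% higher, or 77.5% and 1.01% after that centring.

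Of 18 tested genes that sense amino acids upstream of mTORC1, 6 rose and 3 fell, or none rose and 13 fell after spike-in centring. These shares lie near those of all tested genes, 25.7% higher and 25.2% lower, or 1.61% and 76.4% after that centring. Against insulin 5 were higher and 4 lower, or none higher and 13 lower after that centring. All tested genes stood there at 21.1% higher and 23.3% lower, or 1.01% and 77.5% after it. SESN2, a leucine-binding stress protein, fell by 2.49 ± 0.06 log2 (limma adjusted p = 6.27e-15), while its relative SESN1 rose by 0.64 ± 0.06 and was at 0.19, not called, after spike-in centring. SAR1B, another leucine sensor, fell by 0.27 ± 0.04. RRAGA and RRAGB, GTPases that recruit mTORC1 to lysosomes, rose by 0.38 ± 0.04 and 0.44 ± 0.05, and after spike-in centring were at -0.06 and -1.42e-04. Under insulin RRAGA was called higher than in medium by 0.18 ± 0.04 (limma adjusted p = 0.0303). Leaving out any single medium array, insulin replicate 3 or biomineralized insulin replicate 1 ended the call (0.0505 to 0.139). With spike-in centring RRAGA was at 0.16 ± 0.11 (limma adjusted p = 0.9999).

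**Figure D4:**
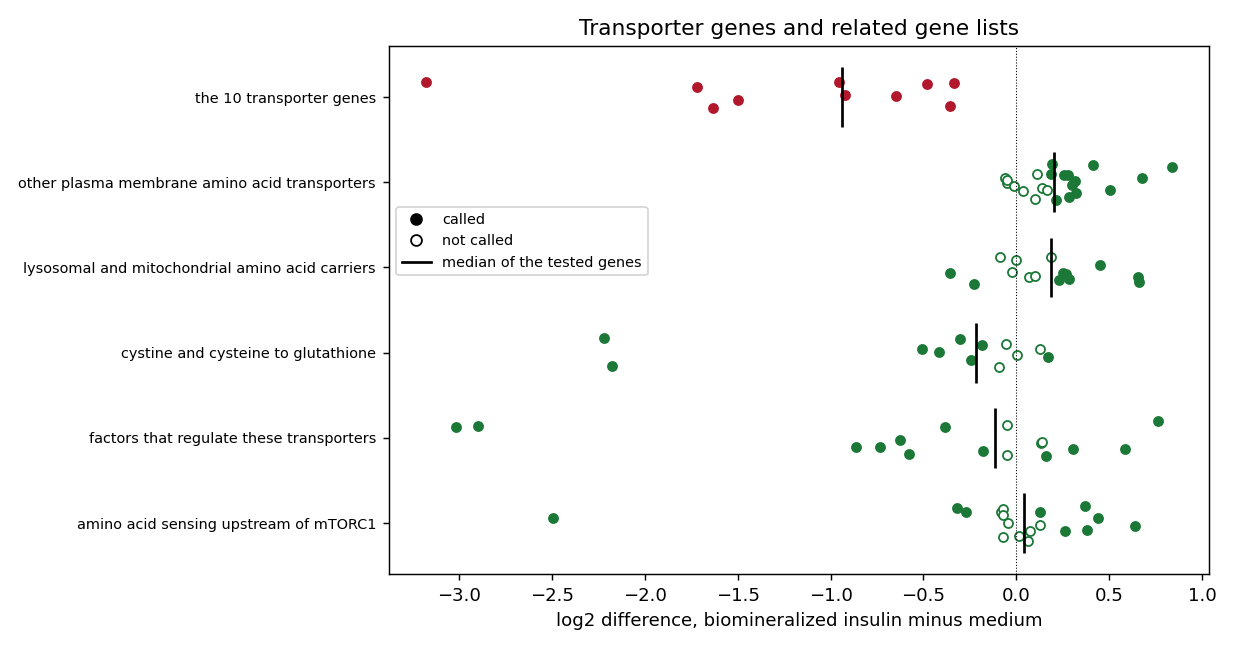
Log2 difference of biomineralized insulin against medium (x axis) for the tested genes of each list (y axis), with the 10 transporter genes in red at the top. Filled points were called, open points were not, and black bars are medians of the tested genes. The transporter genes lie between -3.18 and -0.33 with a median of -0.94, and the other plasma membrane transporters have a median of 0.20, which becomes -0.24 when arrays are centred on the spike-ins.

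Outside the 10 members, which were left out of this search, the genes whose values ran closest to those of SLC7A11 were DDIT3, ATF3 and ECM2. Their Euclidean distances were 0.53, 0.55 and 0.71 log2 over the 9 arrays after each gene was centred on its medium mean. No more than 5 tested genes outside the members lay within a distance of 1 of SLC7A11. For SLC7A5 the nearest were ST3GAL4, EPHA2 and YAF2 at 0.10, 0.11 and 0.12 log2, and for SLC38A2 they were RBSN, PIBF1 and FANCI at 0.06, 0.07 and 0.09. Small changes are common on these arrays. Of genes outside the members, 2629 lay within 0.5 of SLC7A5 and 3244 within 0.5 of SLC38A2, and none within 0.5 of SLC7A11.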

How the data were processed

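The data are log2 expression values per probe set on 9 one-colour arrays, deposited by the authors already normalized, as their range of 2.02 to 14.34 and near-equal medians show. RNA was labelled with a 3' IVT kit, per the labels' protocols. The summarisation software and genome build are not given in the sources used here. Precision is limited by how many arrays there are. Among the 49395 probe sets, 44988 had 1 gene symbol, 1832 several, 2473 none listed, and 102 were controls. Symbols were updated through Entrez identifiers (RefSeq, GRCh38.p14) for 44961.

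The dimmest 40 percent of probe sets were left out, and the brightest remaining probe set stood for each gene (12240 genes). A second fit took all 27223 tested probe sets. Both used limma 3.58.1 in R 4.3.3 (lmFit, eBayes with trend, 9 arrays, 6 residual degrees of freedom) with Benjamini-Hochberg adjustment. Simulated data were used to test the procedure. Figures used matplotlib 3.10.9.

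The members and lists were chosen with earlier results of these data known. Besides the 10 members, the rule for names took up to 4 called genes of lowest p per list, up to 2 of opposite direction, those called under insulin, and the 3 nearest genes of 3 members. The alternatives (23) covered the replicate number as a block, which arrays were fitted, normalization, filters, probe set choice, variance model, weights, threshold and leaving out each array. Their effect on the other lists was added after the data were seen. Deviations of same-numbered arrays correlated at -0.23 to 0.17, and were therefore not used as pairs.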

Additional observations from a re-analysis of the deposited data

How the results depend on the processing

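For biomineralized insulin, against medium and against insulin, the 10 members stayed lower and called under all 23 alternatives in which each was measured (SLC43A1 in 22, as it lay under the stricter brightness filter). The count of genes called became 9544 and 9607 after spike-in centring. The replicate block changed no member's call in these 2 comparisons, with 10 called in each. For biomineralized insulin against medium, spike-in centring turned the sign of SLC1A1 (-0.0313), TXN (-0.273), RRAGA (-0.0621) and RRAGB (-1.42e-04).

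For insulin against medium, members called were 4. The count was 0 with spike-in centring, 2 with the mean of probe sets and 1 with the most variable probe set. It was 1 with no intensity trend, 1 at an adjusted p under 0.01 and 1 to 4 when single arrays were left out. With array weights it was 6, and with the dimmest 60 percent left out 6 of 9, SLC38A1 and SLC6A9 being gained in both. Member probe sets called were 10, and 0 with spike-in centring, 0 with no intensity trend and 1 at an adjusted p under 0.01. They numbered 0 to 12 when single arrays were left out, 13 with array weights and 12 with the dimmest 60 percent left out. Genes called were 300, and 152 in a fit of 6 arrays, 190 after centring on medians, 5 after spike-in centring, 177 when the most variable probe set stood for a gene, 199 when cross-hybridizing probe sets were left out, 37 with no intensity trend, 604 with array weights, 66 at an adjusted p under 0.01 and 57 to 425 when single arrays were left out. At an unadjusted limma p under 0.05, 3 members and 12 probe sets passed with spike-in centring, 21 probe sets with no intensity trend, and 20 when medium replicate 2 or insulin replicate 3 was left out, the arrays that gave 0 probe sets. With the replicate block 4 members were called, but SLC7A1 was lost (limma adjusted p = 0.0764) and SLC6A9 gained (0.0416), and 7 probe sets were called. The cause was not tested. Dim probe sets limit SLC6A9 and SLC1A4.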
